A study of Bos taurus with 9 samples.

Results

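The genes described here are targets of the transcription factor p53 and genes that hold back cell division: CDKN1A, GADD45A, GADD45B, BTG1, BTG2, XPC, PLK2, MDM2, SESN1 and BAX. Of these 10 symbols, 9 had a probe set annotated to that symbol alone in the platform annotation, with 11 probe sets between them, out of 9155 genes that the array names in this way. BTG2 was not analysed here. The expression data come from 9 one-colour bovine Affymetrix arrays of nucleus pulposus cells, the cells of the soft core of the intervertebral disc, cultured from the caudal discs of young calves. There were 3 arrays of cells kept in salt at 500 mOsm/kg for 24 h, 3 of cells kept in it for 5 h and 3 of untreated control cells, all grown in medium with fetal bovine serum. The label of the control cells gives no time in culture, and the same 3 control arrays serve both times. Time in culture and salt therefore cannot be told apart. The labels call the arrays of a group biological replicates numbered 1 to 3 without naming the animals. The p-values therefore rest on the spread among cultures, which may or may not include that among animals.

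In unstressed cells p53 is kept scarce by MDM2, a ubiquitin ligase that marks it for breakdown and is itself a p53 target, which closes a feedback loop. When the cell is stressed, p53 accumulates and switches on genes that stop the cycle (CDKN1A, GADD45A, BTG2, PLK2), repair DNA (XPC), restrain growth signalling (SESN1) or start apoptosis (BAX). Several of these genes also answer to other stress pathways, so their transcripts do not report p53 alone. High salt is known to slow the division of nucleus pulposus cells, and the GADD45 genes are known to be induced by hyperosmotic stress in mouse kidney cells.

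Values are PLIER intensities on a linear scale, where PLIER is the manufacturer's summary of the probes of a probe set. A log2 change is the difference of group means of log2(intensity + 16), with its standard error (SE), and it understates the change of dim probe sets. The test is limma's, fitted to all 9 arrays and 18012 probe sets. A gene was called, and is said to have risen or fallen, at a Benjamini-Hochberg adjusted p under 0.05 over all of them. The median intensity of an array lay between 67.1 and 84.5. The arrays numbered 3, 1 from each group, stood apart on the first principal component (47.7% of the variance), with scores of 50.8 to 68.1 against -42.3 to -18 for the other 6. Arrays of the same number deviated together, so a fit with the replicate number as a block is also quoted. It is given for each of the 9 genes wherever it changes a call, and as a count for each list of pathway genes. For lists of cell type markers such counts are given for some comparisons only. Of 6 nucleus pulposus markers measured, 4 passed the filter on dim probe sets: CDH2 at 1082.7 to 2497.7, ACAN at 497.4 to 4025.9, COL2A1 at 29.1 to 329.7 and KRT18 at 11.3 to 31.8 over the 9 arrays. The keratins KRT8 (12 to 23.2) and KRT19 (2.1 to 13.6) lay below it. The 6 markers summed to 3304 to 5371 at 24 h, 3135 to 3352 at 5 h and 2624 to 3941 in control. Limma called 0 of the 4 without the block. ACAN stood at 1.35 at 24 h against control (adjusted p = 0.19, or 0.00041 with the block) and at 1.46 against 5 h (0.12, or 2e-04). CDH2 stood at -0.53 at 24 h against 5 h (0.17, or 0.0025). The block called 0 others, where it called 35.8% and 43.8% of all probe sets.

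After 24 h in salt, the antiproliferative gene BTG1 and the DNA damage sensor XPC rose, and the polo-like kinase PLK2 fell. These were 3 of the 9 genes, where 8.61% of all probe sets were called at 24 h against control (4.28% higher and 4.32% lower). After 5 h, 0 of the 9 passed limma's adjusted threshold, where 0.483% of all probe sets did. At 5 h 3 genes had an unadjusted p under 0.05 (7.21% of all probe sets), and 1, PLK2, was called as lower with the replicate block (5.86% of all, 2.45% higher and 3.41% lower). Between 24 h and 5 h XPC was called, as 1 of 9, where 14.2% of all probe sets were (8.01% higher and 6.15% lower), and 6 of the 9 had an unadjusted p under 0.05 (29% of all). With the block 4 rose and 1 fell at 24 h against control (35.8% of all probe sets, 18.3% higher and 17.5% lower). At 24 h against 5 h 4 rose and 2 fell (43.8% of all, 24.2% higher and 19.6% lower). The arrays of the 2 groups did not overlap for 3 genes at 24 h against control (27.3% of all probe sets), for 2 genes higher and 1 lower at 5 h against control (10.6% of all, 4.04% higher and 6.6% lower), and for 6 genes at 24 h against 5 h (32.4% of all). The 6 of 9 genes called with the block or not overlapping at 24 h against 5 h thus stand beside a large share of all probe sets. The median log2 change over the 9 genes was 0.27 at 24 h and 0.10 at 5 h against control, beside medians of 0.023 and -0.030 over all probe sets tested. All these values come from bulk cultures, in which fewer cells of a type and less RNA per cell cannot be told apart.

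**Figure D1:**
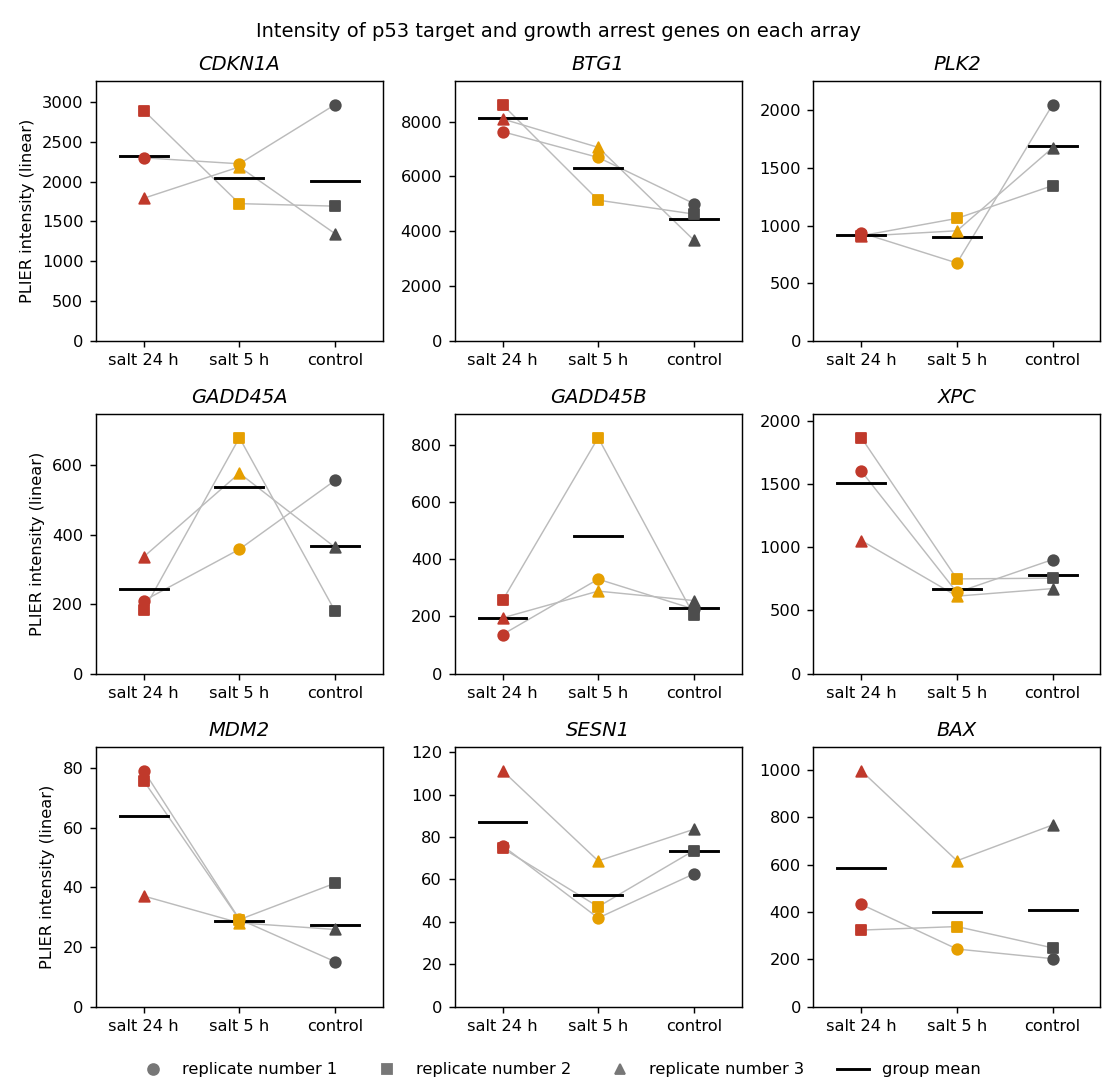
Intensity (linear PLIER units, axis from 0) of the brightest probe set of each gene on the 9 arrays, with salt 24 h, salt 5 h and control from left to right; symbols mark the replicate number, grey lines join arrays of the same number, and black bars are group means. BTG1 and XPC at 24 h sit above all control arrays, PLK2 sits below them at both times, and BAX is highest on the array numbered 3 in every group.

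CDKN1A encodes p21, the inhibitor of cyclin-dependent kinases through which p53 stops the cycle before DNA synthesis. Its intensity was 2300.1, 2895.1 and 1790.9 on the 24 h arrays, 2224.6, 1723.3 and 2186 on the 5 h arrays and 2969.2, 1691.6 and 1345.3 on the control arrays, for replicates 1, 2 and 3. The 3 groups overlapped, and the highest single value was that of control replicate 1. The log2 change was 0.27 ± 0.29 at 24 h (95% interval -0.38 to 0.92, adjusted p = 0.68) and 0.10 ± 0.29 at 5 h (-0.55 to 0.75, adjusted p = 1). Both intervals hold changes of either sign. Leaving out 1 array moved the 24 h value between 0.027 (without control replicate 3) and 0.59 (without control replicate 1), and the 5 h value between -0.14 and 0.43 for the same 2 arrays. At 24 h the gene was higher in replicate pairs 2 and 3 (0.77 and 0.41) and lower in pair 1 (-0.37).

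BTG1, a founding member of the BTG/TOB family, restrains proliferation and binds the deadenylases that shorten mRNA tails. It was at 7632.4, 8621.1 and 8098.3 on the 24 h arrays, 6692, 5131.5 and 7059.3 on the 5 h arrays and 5006.4, 4622 and 3670.6 on the control arrays. The groups did not overlap: every 24 h array lay above every 5 h array, and every 5 h array above every control array. BTG1 rose by 0.88 ± 0.15 at 24 h (95% interval 0.54 to 1.22, adjusted p = 0.013), and the ratio of mean intensities was 1.83. At 5 h it stood at 0.50 ± 0.15 (adjusted p = 0.30, or 0.065 under the replicate block). The difference of 24 h from 5 h, 0.38 ± 0.15, had adjusted p = 0.13, and 0.048 with the block. The call at 24 h against control held in 9 of 9 refits that dropped 1 array, at adjusted p of 0.010 to 0.049.

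PLK2 is a polo-like kinase whose transcript p53 can induce and which takes part in checkpoints and centriole duplication. Its intensity was 936.5, 911.3 and 907.1 on the 24 h arrays, 674.1, 1061.8 and 954.3 on the 5 h arrays and 2050.7, 1347 and 1675.6 on the control arrays. All 6 salt arrays lay below the 3 control arrays, and the 24 h arrays differed from each other by little, with an SD of 15.9. PLK2 fell by 0.85 ± 0.20 at 24 h (95% interval -1.31 to -0.39, adjusted p = 0.036). At 5 h the log2 change was -0.91 ± 0.20, about as large (adjusted p = 0.12, or 0.021 under the replicate block). The change of 24 h from 5 h was 0.059 ± 0.20 (interval -0.40 to 0.52, adjusted p = 0.90). Against control the 24 h call was kept in 3 of 9 refits with an array left out, and ended without any 1 of the 3 arrays of 24 h or of the 3 control arrays, at adjusted p of up to 0.11.

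GADD45A and GADD45B are small stress-induced proteins that bind cell cycle regulators and activate a kinase upstream of p38 and JNK. GADD45A was at 210, 183 and 336.5 on the 24 h arrays, 358.2, 679.6 and 577.3 on the 5 h arrays and 556.6, 179.9 and 363.7 on the control arrays. Every 24 h array lay below every 5 h array, while the control arrays overlapped both. GADD45B was at 136.8, 256.1 and 195.1 at 24 h, 330.7, 825.8 and 288.8 at 5 h and 225.8, 204.6 and 255.8 in control. Its 5 h arrays all lay above those of 24 h and of control, with 5 h replicate 2 far above the others.

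In neither GADD45 gene was a comparison called without the block. At 5 h against control the log2 change was 0.62 ± 0.41 for GADD45A (adjusted p = 1) and 0.87 ± 0.38 for GADD45B (adjusted p = 0.67). Without 5 h replicate 2 the value of GADD45B was 0.42, and that of GADD45A was 0.20 without control replicate 2 and 0.98 without control replicate 1. At 24 h against control both were negative, at -0.48 ± 0.41 for GADD45A (adjusted p = 0.58) and -0.24 ± 0.38 for GADD45B (adjusted p = 0.80). Leaving out 1 array moved these between -0.89 (without control replicate 2) and -0.12 (without control replicate 1) for GADD45A, and between -0.44 (without 24 h replicate 2) and -0.025 (without 24 h replicate 1) for GADD45B. Between 24 h and 5 h the changes were -1.09 ± 0.41 for GADD45A (adjusted p = 0.11, and 0.029 with the replicate block) and -1.11 ± 0.38 for GADD45B (adjusted p = 0.085, and 0.0091 with the block). Both genes were lower at 24 h than at 5 h in 3 of 3 replicate pairs. For GADD45B the difference was -0.66 without 5 h replicate 2.

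XPC is the subunit that recognises damaged DNA at the start of nucleotide excision repair, and its gene is a p53 target. It was at 1600.4, 1864.9 and 1052.2 on the 24 h arrays, 641.8, 748.7 and 612.5 on the 5 h arrays and 901.5, 754.6 and 672.1 on the control arrays. The 24 h arrays lay above all others, and the 5 h arrays overlapped control. XPC rose by 0.91 ± 0.22 at 24 h against control (95% interval 0.42 to 1.41, adjusted p = 0.037), with a ratio of mean intensities of 1.94. At 5 h it stood at -0.21 ± 0.22 (adjusted p = 1). The rise between 24 h and 5 h was 1.12 ± 0.22 (interval 0.63 to 1.62, adjusted p = 0.013), with 3 of 3 pairs higher at 24 h. Against control the call was kept in 4 of 9 refits with an array left out. It ended without 24 h replicate 1 or 2, 5 h replicate 1, or control replicate 2 or 3, at adjusted p of 0.068 to 0.13.

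MDM2, the ubiquitin ligase of the feedback loop, had a dim probe set. It read 79.1, 75.7 and 37.1 at 24 h, 29.3, 29.2 and 28.1 at 5 h and 15.1, 41.4 and 25.9 in control. All 24 h arrays lay above all 5 h arrays, and 24 h replicate 3 fell within the control range. The log2 change at 24 h against control was 0.88 ± 0.28 (95% interval 0.25 to 1.51, adjusted p = 0.090, or 0.013 under the replicate block). Without 24 h replicate 3 it was 1.15 with adjusted p = 0.042. Between 24 h and 5 h it was 0.79 ± 0.28 (adjusted p = 0.097, 0.018 with the block, and 0.038 without 24 h replicate 3). At 5 h against control it was 0.091 ± 0.28 (adjusted p = 1). At these intensities the pseudocount sets the size of the change: at 24 h against control it was 1.22 with a pseudocount of 1 and 0.48 with one of 64, uncalled in both (adjusted p = 0.10 and 0.084).

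SESN1, a sestrin that restrains the growth kinase complex mTORC1, also had a dim signal. Its brightest probe set read 75.9, 74.7 and 111.2 at 24 h, 41.8, 47.1 and 68.7 at 5 h and 62.6, 73.6 and 83.6 in control. The 24 h arrays all lay above the 5 h arrays and overlapped control. The difference of 24 h from 5 h was 0.59 ± 0.21 (adjusted p = 0.10, and 0.0035 with the replicate block), and the 3 pairs gave 0.67, 0.52 and 0.59. At 5 h SESN1 stood at -0.39 ± 0.21 (adjusted p = 0.88) and at 24 h at 0.20 ± 0.21 (adjusted p = 0.68) against control. The 24 h value against control was 0.039 without 24 h replicate 3. The other 2 probe sets of SESN1 were below the filter, which lay at an intensity of 17.1, and were not tested. One of them had the same order of group means, with 18.1 at 24 h, 5.03 at 5 h and 11.4 in control, and the other averaged 10.1 at 24 h, 8.93 at 5 h and 8.23 in control.

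BAX encodes the protein that opens the outer mitochondrial membrane in apoptosis. It was at 432.6, 323.8 and 997.3 at 24 h, 243.7, 338.7 and 616.8 at 5 h and 203, 248.6 and 768.2 in control. In each group the array numbered 3 was the highest, and the groups overlapped throughout. The log2 change at 24 h against control was 0.59 ± 0.57 with adjusted p = 0.64. With the replicate block the SE was 0.18 and the adjusted p 0.029, with pairs at 1.0, 0.36 and 0.37. At 5 h it stood at 0.12 ± 0.57 (adjusted p = 1, and 0.78 with the block). With the 3 arrays numbered 3 left out of all groups, a setting chosen after seeing the data, the 24 h value was 0.70 with adjusted p = 0.10. Leaving out a single array numbered 3 moved it far more, to 0.13 without 24 h replicate 3 and to 1.16 without control replicate 3. The 5 h value was -0.23 without 5 h replicate 3 and 0.69 without control replicate 3.

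**Figure D2:**
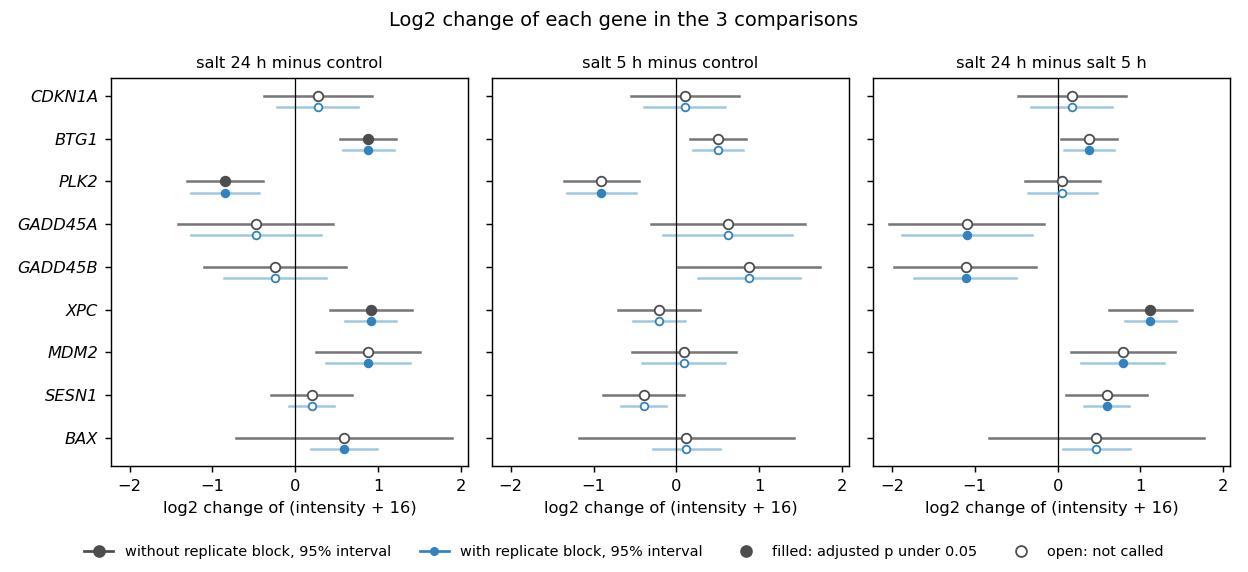
Log2 change of (intensity + 16) of the 9 genes in the 3 comparisons, with 95% intervals; grey is the fit without and blue the fit with the replicate block, and filled points have an adjusted p under 0.05. BTG1, XPC and PLK2 are filled in grey at 24 h against control, and BAX has the widest grey intervals and much narrower blue ones.

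The 9 genes did not vary in 1 way over the arrays. Over the 9 arrays the sum of squares of the log2 values was divided into a share between the 3 groups, a share between the replicate numbers and a remainder. The groups held 82.8% for BTG1, 81.4% for XPC and 79.2% for PLK2, beside a median of 34.7% over all probe sets tested. These 3 genes were called between groups on the same arrays, so their large shares add no evidence. Of genes not called without the block, MDM2 had 62.5% between groups, GADD45B 55.3% and GADD45A 47.2%. For BAX the groups held 12.2% and the replicate numbers 80.6%, where the median over all probe sets was 41.8%. For CDKN1A the remainder was the largest share, at 55.3%, so neither group nor replicate number described most of its variation. SESN1 had 59.1% between groups and 37% between replicate numbers. These shares are descriptions and carry no test.

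**Figure D3:**
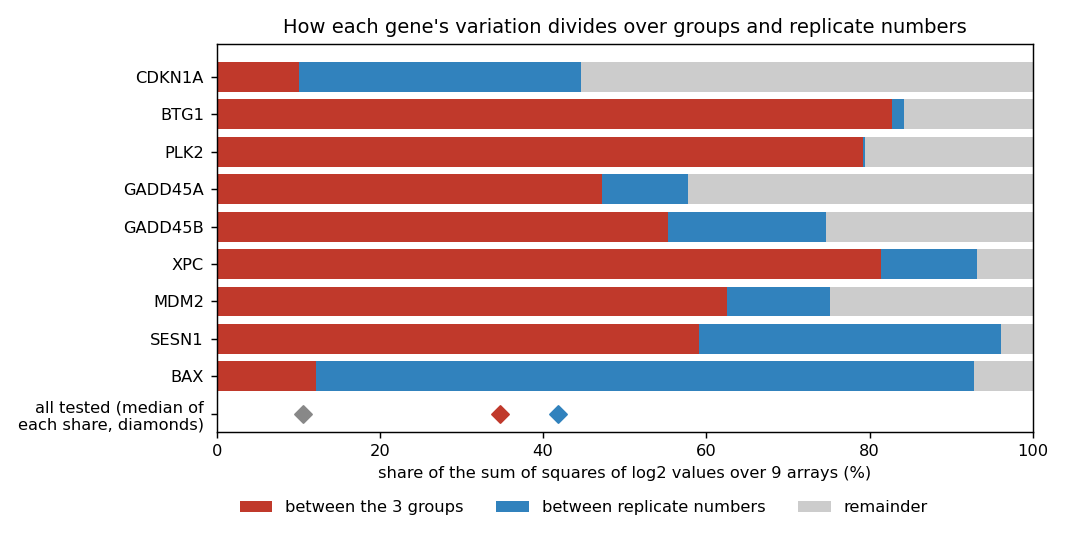
Share (%) of each gene's sum of squares of log2 values over the 9 arrays that lies between groups (red), between replicate numbers (blue) or in the remainder (grey), with the medians over all 18012 probe sets as diamonds. Red fills most of the bars of BTG1, XPC and PLK2, blue that of BAX (80.6%) and grey that of CDKN1A (55.3%).

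The genes with the most similar course over the 9 arrays were found by the root-mean-square difference of centred log2 values among 6243 other named genes. XPC was closest to STAT2, at 0.10, POMT1 at 0.13 and GOLPH3L at 0.14, where the median gene differed by 0.60. BTG1 was closest to MLLT3 (0.15), GALM (0.16) and FOXA3 (0.16), with a median gene at 0.51. PLK2 was closest to TMEM50B (0.23), WDR89 (0.23) and C28H1orf131 (0.23), with a median gene at 0.55. CDKN1A was closest to MCF2L (0.18), COL11A1 (0.19) and WWOX (0.20), with a median gene at 0.48.

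Other genes of the same pathways were described by lists, each gene by its brightest probe set. Counts with the replicate block stand beside 35.8% of all probe sets called in that fit at 24 h and 5.86% at 5 h against control, and 43.8% at 24 h against 5 h. Without the block, 8.61% of all probe sets were called at 24 h against control (4.28% higher and 4.32% lower). The share was 0.483% at 5 h against control and 14.2% at 24 h against 5 h. List counts without the block, here and below, stand beside these shares. Of 12 other p53 targets tested, 0 were called at 24 h or at 5 h against control by limma, with medians of -0.042 and -0.066; with the replicate block 2 rose and 2 fell at 24 h, and 1 rose and 1 fell at 5 h. At 24 h this is 4 of 12, near the share over all probe sets. With the block 2 rose and 2 fell at 24 h against 5 h. POLH, the polymerase that copies past damaged bases, was lower at 24 h than at 5 h by -0.91 ± 0.20 (adjusted p = 0.020). Against control POLH at 24 h stood at -0.60 (adjusted p = 0.10, or 0.023 with the block). Among 7 genes that regulate p53, TP53BP1, a scaffold of the DNA damage response that binds p53, rose by 0.70 ± 0.14 at 24 h against control (adjusted p = 0.022). It stood at -0.38 ± 0.14 at 5 h (adjusted p = 0.53, and 0.047 with the block), and 24 h exceeded 5 h by 1.08 ± 0.14 (adjusted p = 0.0042). The checkpoint kinase CHEK1 was lower at 24 h than at 5 h by -0.71 ± 0.20 (adjusted p = 0.042), and at 24 h against control it stood at -0.72 (adjusted p = 0.055, or 0.0040 with the block). Of these 7 regulators the block called 1 higher and 1 lower at 24 h and at 5 h against control, and 1 higher and 3 lower at 24 h against 5 h. With 1 array dropped, the call of POLH ended without replicate 1 or 3 of either salt time (adjusted p up to 0.084). That of TP53BP1 against control ended without 24 h replicate 1 or 2 or control replicate 2 or 3 (up to 0.073). That of CHEK1 ended without any array but control replicate 1 (up to 0.13).

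In the cell cycle machinery that CDKN1A and the GADD45 proteins act on, 7 of 8 G1 cyclins, cyclin-dependent kinases and E2F1 had a negative log2 change at 24 h against control, with a median of -1.1, where 47.2% of all probe sets tested had a negative one. The cyclins CCNE2 (-1.67 ± 0.22, adjusted p = 0.0054) and CCNE1 (-0.99 ± 0.24, adjusted p = 0.039) fell, and with the replicate block 7 did, where that fit called 17.5% of all probe sets lower. The dimmer CCNE1 probe set stood at -0.91 (adjusted p = 0.11), and the CCNE1 call ended without any array but 5 h replicate 2 or 3 (adjusted p up to 0.14). Between 24 h and 5 h CCNE2 fell by 0.87 ± 0.22 (adjusted p = 0.030), a call that ended without any 24 h array or without 5 h replicate 1 or 2 (up to 0.10). At 5 h 0 of the 8 were called by limma, and 2 fell with the block; between 24 h and 5 h 1 rose and 6 fell with it. Among 5 binding partners of the GADD45 proteins, the replication clamp PCNA, which also binds p21, fell by 1.08 ± 0.19 at 24 h against control (adjusted p = 0.014). PCNA averaged 1713 at 24 h and 3660 in control, and its call ended without 24 h replicate 1 or control replicate 2 (adjusted p up to 0.060). Between 24 h and 5 h PCNA fell by 1.31 (adjusted p = 0.0051), and the call held in 9 of 9 refits. The mitotic cyclin CCNB1 was lower at 24 h than at 5 h by -1.27 ± 0.33 (adjusted p = 0.035), a call that ended without 24 h replicate 1 or 3 or any 5 h array (up to 0.11). At 24 h against control CCNB1 stood at -0.83 (adjusted p = 0.16, or 0.022 with the block). With the block 3 of the 5 partners fell in each of these comparisons and 0 were called at 5 h. Of 5 other CDK inhibitors and RB family genes, 0 were called by limma in any comparison. With the block RBL2 rose at 24 h against control, and at 24 h against 5 h RBL2 rose while CDKN2C and RB1 fell. The dimmer RBL2 probe sets stood at 0.49 and 0.21 at 24 h against control (adjusted p = 0.76 and 0.81 without the block). At 24 h against 5 h they stood at 0.39 and -0.021 (adjusted p = 0.78 and 0.98).

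Among 9 relatives and partners of BTG1, the deadenylase CNOT6 fell by 1.42 ± 0.21 at 5 h (adjusted p = 0.035), and was higher at 24 h than at 5 h by 0.84 (adjusted p = 0.031). The call at 5 h ended without any of 24 h replicates 1 and 2, 5 h replicates 1 and 3 and control replicates 2 and 3 (up to 0.17), and that between the times without any salt array (up to 0.11). Both also ended with arrays centred on their median. At 24 h against control CNOT6 stood at -0.58 (adjusted p = 0.13, or 0.014 with the block). The arginine methyltransferase PRMT1, which binds BTG1, fell by 0.87 ± 0.22 at 24 h against control (adjusted p = 0.044). A dimmer PRMT1 probe set stood at 0.0043, and the call ended without any array but 5 h replicate 2 or 3 (up to 0.16). PRMT1 also fell at 24 h against 5 h, by 1.01 (adjusted p = 0.019), a call that ended without 24 h replicate 2 or 5 h replicate 1 or 2 (up to 0.067). Its dimmer probe set stood at 0.051 in that comparison (adjusted p = 0.92). TOB2 was lower at 24 h than at 5 h by -0.99 ± 0.22 (adjusted p = 0.020), and its dimmer probe set stood at -0.68 (adjusted p = 0.096). The TOB2 call ended without 24 h replicate 1 or 2 or 5 h replicate 1 or 3 (up to 0.080). At 5 h against control TOB2 stood at 0.80 (adjusted p = 0.24, or 0.0069 with the block). Of the 9 the block called 1 higher and 2 lower at 24 h and 2 higher and 1 lower at 5 h against control, and 2 higher and 6 lower at 24 h against 5 h. Of the 3 other polo-like kinases, 0 were called against control by limma, and PLK4, which starts centriole duplication, was lower at 24 h than at 5 h by -0.93 ± 0.22 (adjusted p = 0.024). The PLK4 call ended without 24 h replicate 1 or 3 or any 5 h array (up to 0.085). With the block 3 of the 3 fell at 24 h and 1 fell at 5 h against control, and at 24 h against 5 h 1 rose and 2 fell.

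Of 14 other genes of nucleotide excision repair, 1 fell at 24 h against control and 0 rose in the fit without the block; with it 5 fell and 1 rose there, 1 fell at 5 h, and 5 fell and 2 rose at 24 h against 5 h. The gene called without the block was RAD23B, a partner of XPC in the damage recognition complex, which fell by 0.60 ± 0.15 (adjusted p = 0.039). That call ended with arrays centred on their median and without any array but 24 h replicate 3 or control replicate 1 (up to 0.14). The replication protein A subunits RPA2 (-0.97 ± 0.18, adjusted p = 0.012) and RPA3 (-0.64 ± 0.16, adjusted p = 0.031) were lower at 24 h than at 5 h. Against control they stood at -0.64 (RPA2, adjusted p = 0.062, or 0.0052 with the block) and -0.52 (RPA3, adjusted p = 0.084, or 0.013 with the block) at 24 h. RAD23B was also lower at 24 h than at 5 h, by -0.66 (adjusted p = 0.020), a call that ended without 24 h replicate 1 or 2 or any 5 h array (up to 0.078). The RPA2 call ended without replicate 1 of either salt time (up to 0.053) and the RPA3 call without any salt array (up to 0.089). Of 6 other genes of the sestrin and mTORC1 list, 2 rose at 24 h against control: TSC1, whose product inhibits mTORC1 (1.55 ± 0.30, adjusted p = 0.019), and NPRL2, a subunit of another inhibitor complex (0.92 ± 0.15, adjusted p = 0.011). Both calls ended without 24 h replicate 1 or control replicate 2, and that of TSC1 also without 24 h replicate 2 or control replicate 3 (up to 0.073). At 24 h against 5 h TSC1 rose by 1.48 (adjusted p = 0.016) and NPRL2 by 0.67 (adjusted p = 0.020). The first call ended without 24 h replicate 1 (0.055), the other without 24 h replicate 1 or 2 or any 5 h array (up to 0.082). With the block 2 of the 6 rose at 24 h and 1 fell at 5 h against control, and 3 rose at 24 h against 5 h. Of 7 other BCL2 family genes tested beside BAX, 0 were called by limma in any comparison, and with the block 2 fell at 24 h against control and 1 rose at 24 h against 5 h.

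**Figure D4:**
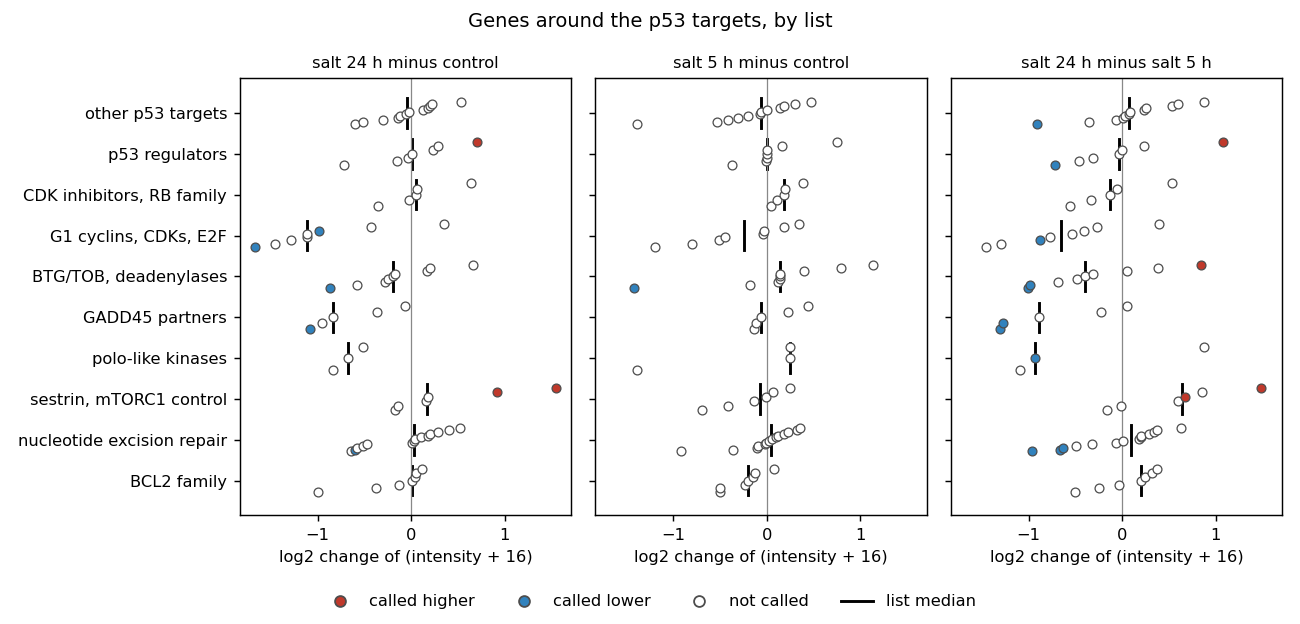
Log2 change of (intensity + 16) of each gene of 10 lists around the p53 targets in the 3 comparisons; each point is 1 gene, red called higher, blue called lower, open not called, and black bars are list medians. G1 cyclins, kinases and E2F1 lie mostly left of 0 at 24 h against control, with a median of -1.1, and the other p53 targets lie around 0.

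Markers of other cell types were read beside these results; those named without a call were chosen after their values were seen. Skeletal muscle markers summed to 2152 to 3514 at 24 h, 1164 to 3431 at 5 h and 924.6 to 1102 in control. Of 4 tested, CKM rose at 24 h against control, by 1.99 (adjusted p = 0.032), and at 5 h stood at 1.57 (adjusted p = 0.28, or 0.010 with the block). CKM averaged 2652 at 24 h, 2249 at 5 h and 641 in control, and so held most of the difference between these sums. Its dimmer probe set stood at -0.019 at 24 h. ACTA1, at 161.3 to 435.6 over all arrays, stood at -0.60 at 24 h (adjusted p = 0.16, or 0.0023 with the block), and MYH1 lay at 10.2 or less. The block called 1 of the 4 higher and 1 lower at 24 h against control, and 1 higher at 5 h. At 24 h against 5 h it called 1 lower.

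Leukocyte markers summed to 442.9 to 481 at 24 h, 245.5 to 265.3 at 5 h and 223.1 to 259 in control. Of 6 tested, CD14 rose at 24 h against control, by 1.43 (adjusted p = 0.0054), and its dimmer probe set stood at 0.95 (adjusted p = 0.065). CD14 averaged 286 at 24 h and 95.6 in control, and so held most of the difference between these sums. PTPRC, which defines leukocytes, lay between 0 and 36.8. The block called 1 of the 6 leukocyte markers higher at 24 h and 1 at 5 h against control. The latter was CSF1R, at 0.67 (adjusted p = 0.23, or 0.030 with the block). At 24 h against 5 h the block called 1 higher and 1 lower. Fibroblast markers of annulus and tendon summed to 8425 to 11800 at 24 h, 6420 to 7446 at 5 h and 6398 to 9994 in control. Of 4 tested, COL12A1 rose at 24 h against control by 1.73 (adjusted p = 0.0033) and THY1 by 0.74 (adjusted p = 0.037). COL1A1 stood at -0.32 there (adjusted p = 0.84, or 0.046 with the block) and PDGFRA at 0.21 (adjusted p = 0.75). With the block 2 of the 4 rose and 1 fell at 24 h against control. The other COL12A1 probe sets stood at 1.96 (adjusted p = 0.0068) and 0.36 (adjusted p = 0.32), and the tendon marker TNMD lay at 6.5 or less. CD14, COL12A1 and THY1 were also called higher at 24 h than at 5 h.

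Endothelial markers summed to 173.3 to 209.9 at 24 h, 174.9 to 209.7 at 5 h and 166.2 to 223 in control. Of 5 tested, 0 were called against control by limma, while with the block 1 rose and 1 fell at 24 h. CLDN5 was lower at 24 h than at 5 h by -0.73 (adjusted p = 0.034). Erythroid markers summed to 151.4 to 221.4 at 24 h, 186.1 to 254.9 at 5 h and 163.2 to 231.7 in control, and of 2 tested 0 were called in any comparison by limma and 1 fell at 24 h against 5 h with the block. No marker was at 0 on all arrays. As a measure of RNA length, the signal of the 3-prime actin probe set over the 5-prime one, in log2 units, was 2.83 to 3.31 at 24 h, 2.37 to 2.90 at 5 h and 2.51 to 2.86 in control. The same measure from the GAPD control probe sets lay near 0 in every group. It was 0.012 to 0.043 at 24 h, -0.029 to 0.057 at 5 h and -0.18 to 0.0056 in control. The part of these differences in the results above was not tested.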

How the data were processed

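The deposited table holds 24128 probe sets by 9 arrays as intensities on a linear scale, which, per the submitters' processing notes, the authors made with PLIER in Expression Console. The sources used here give no version, settings or normalization between arrays. Of the probe sets, 112 manufacturer controls were left out, and 13292 carry 1 gene symbol in the platform annotation. All 9 genes matched by gene number to a current RefSeq table, which changed 0 symbols. Sequences and genome positions were not used.

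The test used log2(intensity + 16) without further normalization, and probe sets with a mean under the 25th percentile were removed, which left 18012. Group means of all 9 arrays were fitted by lmFit and eBayes (trend in mean intensity) of limma 3.58.1 under R 4.3.3, and p-values were Benjamini-Hochberg adjusted over all probe sets within a comparison. The procedure was tested on simulated data. A gene is represented by its brightest single-symbol probe set. The number of arrays limits the precision.

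Deviations from group means correlated at 0.56 to 0.90 in the 9 same-number pairs across groups and at -0.78 to 0.54 in the 18 others. Every negative value involved an array numbered 3. Between numbers 1 and 2 the values were 0.31 to 0.54, near the 0.56 to 0.72 within each of these numbers. A pairing of the arrays numbered 1 and 2 is therefore less clear than that of the arrays numbered 3. No 2 arrays were identical. The alternatives were normalization, pseudocount, filter, replicate block, the 6 arrays compared, no intensity trend and leaving out arrays. The genes and lists were chosen with earlier results of these data known. All 9 measured genes are named, and from each list up to 3 called genes with the smallest adjusted p in a comparison, as fixed in the design; for 4 genes the 3 most alike are named. Genes named outside this rule (uncalled markers, and the relatives called with the block alone) were chosen after their values were seen.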

Additional observations from a re-analysis of the deposited data

Results flagged for a closer look

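XPC differed between the salt times: 24 h minus 5 h was 1.12 on the log2 scale (limma adjusted p = 0.013), with mean intensities of 1506 at 24 h and 668 at 5 h, and this difference was tested directly. It was higher at 24 h in 3 of 3 replicate pairs. The call ended without 24 h replicate 1 (adjusted p = 0.057) or 5 h replicate 1 (adjusted p = 0.056). Both comparisons with control share the same control arrays.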

How the results depend on the processing

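Of the genes called without the block, BTG1 at 24 h against control kept its call under every alternative run; XPC also lost its call when fitted to the 6 arrays compared (adjusted p = 0.079), and PLK2 without the arrays numbered 3 (adjusted p = 0.083). Over the 9 genes, 469 refitted values kept their direction and their side of the threshold, 15 lost a call, 14 gained one, 9 turned sign with no call on either side, and 0 turned sign with a call. The replicate block raised the calls over all probe sets to 6452 at 24 h and 1056 at 5 h against control and 7884 at 24 h against 5 h (without it 1550, 87 and 2551), and those of the 9 genes to 5, 1 and 6; it ended none of the 1550, 87 and 2551 calls. Fitted to the 6 arrays compared, 792 probe sets were called at 24 h and 13 at 5 h against control. With arrays centred on their median, 57 were called at 5 h, 34 higher and 23 lower (42 and 45 without centring). That centring moved the median of all probe sets by -0.15 at 24 h against 5 h, where 33.4% of calls were higher against 56.6% without it, and 37.8% against 49.7% at 24 h against control; XPC at 24 h against 5 h was then 0.97, and PLK2 turned to -0.095 (adjusted p = 0.83; 0.059 without centring). Without the arrays numbered 3 in all groups, 4 of the 9 genes were called at 24 h against 5 h, where 18.7% of all probe sets were. Leaving out 1 array at a time gave 304 (without 24 h replicate 1) to 1533 calls over all probe sets at 24 h against control, 15 to 126 at 5 h, and 854 to 2429 at 24 h against 5 h. Of the 9 genes 1 to 3 were then called at 24 h against control, 0 at 5 h and 0 to 2 at 24 h against 5 h. Of 455 refits of the 24 calls of list genes, settings chosen after seeing the data, 336 kept the call, 119 lost it and 0 turned sign; CCNE2 at 24 h against control, and TP53BP1 and PCNA at 24 h against 5 h, kept theirs in all 19. MDM2 and SESN1 lie near the floor of the array, which limits their precision; a filter at the 50th percentile removed both genes and CCNE1, so it gave no value for them.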

Other observations

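Some relatives of the genes above were called in the fit with the replicate block but not without it, and are given here with names chosen after their values were seen. TOB1, an antiproliferative relative of BTG1, averaged 981 at 24 h, 1424 at 5 h and 628 in control. Its log2 change at 5 h against control was 1.14 ± 0.35 (adjusted p = 0.32, and 0.0014 with the block) and at 24 h 0.66 ± 0.35 (adjusted p = 0.30, and 0.0042 with the block). PLK3, a polo-like kinase and p53 target, averaged 66.2 at 24 h, 28.5 at 5 h and 101 in control, with a change of -1.39 ± 0.30 at 5 h (adjusted p = 0.11, and 0.0014 with the block). DDIT4, a stress-induced inhibitor of mTORC1, averaged 3054 at 24 h, 1767 at 5 h and 2770 in control. It was 0.85 ± 0.27 at 24 h against 5 h (adjusted p = 0.065, and 0.0019 with the block). CETN2, the centrin that joins XPC and RAD23B in the damage recognition complex, averaged 1150 at 24 h and 780 in control, a change of 0.53 ± 0.31 (adjusted p = 0.38, and 0.0042 with the block).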
